A study of Homo sapiens with 4 samples.

Results

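Aminoacyl-tRNA synthetases are the enzymes that attach each amino acid to its transfer RNA before translation. Human cells translate in the cytosol and in mitochondria, and nuclear genes supply synthetases to both places. Most amino acids are served by separate genes for the cytosolic and the mitochondrial enzyme, and the mitochondrial one then carries the suffix 2 in its symbol. GARS1 for glycine and KARS1 for lysine each encode both forms. QARS1 for glutamine has no mitochondrial counterpart, since mitochondria make glutaminyl-tRNA by amidating glutamyl-tRNA. All of these are protein-coding mRNAs made in the nucleus and translated in the cytoplasm.

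The genes were chosen by biotype and symbol, as protein-coding genes whose symbol is 1 amino acid letter followed by ARS and an optional 1, 2 or 3, together with EPRS1, FARSA and FARSB. This gave 37 genes out of 51740 rows of the deposited table, of which 21 encode cytosolic and 16 encode mitochondrial enzymes. All 37 were among the 23333 tested genes, so no filter on low values removed a member. MARS2, the mitochondrial methionyl-tRNA synthetase, was not analysed here.

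RNA had been sequenced from a nuclear and a cytoplasmic fraction of HEK293T, an established line derived from human embryonic kidney and transformed with viral antigens. The cells were wildtype by label, were crosslinked with formaldehyde before fractionation and received no other treatment by label, and this holds for both groups. There were 2 nuclear and 2 cytoplasmic libraries, each described as a biological replicate, and each made from 400 ng of RNA with a stranded kit that removes ribosomal RNA, and read from both ends for 100 nt. Because equal masses of RNA were used, a value is relative to the other RNA of its library and not an amount per cell. Less RNA per cell therefore cannot be told apart from a lower relative level. The values carry the authors' scaling for depth and are not shares of a fraction's total RNA. Results with both fractions scaled to equal totals are given below as an alternative.

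The libraries are named here by their size factor, the authors' scale for depth, which was 1.34 for the deeper and 1.19 for the shallower nuclear library and 0.853 and 0.755 for the cytoplasmic libraries. Which replicate number each of them carries is not known from the table. Counts of single libraries were recovered for 13624 genes, as described with the processing, and over these genes they summed to between 12988791 and 21212697 counts per library, which is part of each library and not its depth. Nuclear noncoding RNAs marked the fractions, with a log2 fold change of cytoplasmic over nuclear of -3.47 ± 0.13 (SE) for MALAT1 and -3.09 ± 0.13 for NEAT1. Abundant mRNAs of the cytoplasm lay on the other side, at 3.78 ± 0.12 for GAPDH and 4.09 ± 0.13 for EEF1A1.

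On the deposited scale most synthetase mRNAs were higher in cytoplasmic than in nuclear RNA. Except for FARSB, the genes called the other way were those of mitochondrial enzymes. At a DESeq2 adjusted p of at most 0.01, 25 of the 37 genes were called cytoplasmic (higher in that fraction), 6 were called nuclear and 6 did not pass. Among the 21 cytosolic enzymes 17 were cytoplasmic, 1 was nuclear and 3 did not pass. Among the 16 mitochondrial enzymes 8 were cytoplasmic, 5 were nuclear and 3 did not pass. Over all tested genes 25.9% were called cytoplasmic and 26.5% nuclear, and over the 15336 tested protein-coding genes these shares were 35.6% and 28.4%. With both fractions scaled to equal totals, every log2 fold change moved by -0.66. The 37 genes then split into 14 cytoplasmic and 13 nuclear calls, beside 22.4% and 42.6% of the protein-coding genes. Of these nuclear calls 4 were cytosolic and 9 mitochondrial enzymes.

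The cytosolic enzymes had a median log2 fold change of 1.04 and ranged from -0.42 to 2.69. For the mitochondrial enzymes the median was 0.18, or 0.07 to 0.28 with 1 library left out, and the range was wider, from -2.89 to 2.28. The median of all tested protein-coding genes was 0.11. With equal totals the cytosolic median was 0.38, the mitochondrial one -0.48 and that of protein-coding genes -0.55. The distance of 0.86 between the medians of both groups is a description, since genes are not replicates.

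**Figure D1:**
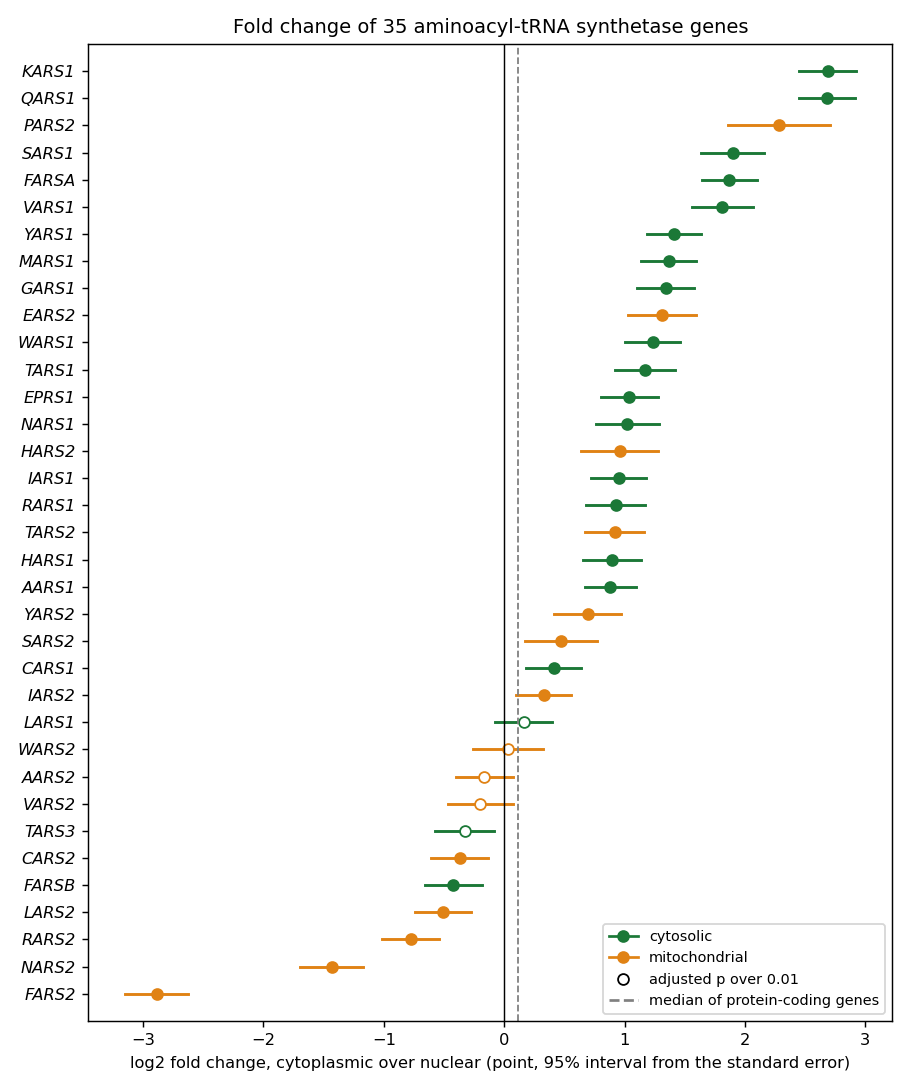
The log2 fold change of cytoplasmic over nuclear RNA (horizontal axis) is shown for 35 synthetase genes, ordered by value, with the 95% interval from its standard error. Filled points passed the adjusted p threshold of 0.01 and open points did not, and the dashed line is the median of tested protein-coding genes at 0.11. Cytosolic enzymes fill most of the upper rows, and 5 of the lowest 6 are mitochondrial enzymes.

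Single-library counts were recovered for 36 of the 37 genes, all but IARS1. For 17 of the 20 cytosolic genes with counts, both cytoplasmic libraries lay above both nuclear libraries, for 2 (FARSB and TARS3) they lay below, and for LARS1 the fractions overlapped. The mitochondrial genes split into 8 with cytoplasmic libraries above, 7 with nuclear libraries above and 1 with overlap, WARS2. Fractions did not overlap for most genes in these data, with the cytoplasmic libraries above in 48.0% and the nuclear libraries above in 45.3% of the 13624 genes.

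**Figure D2:**
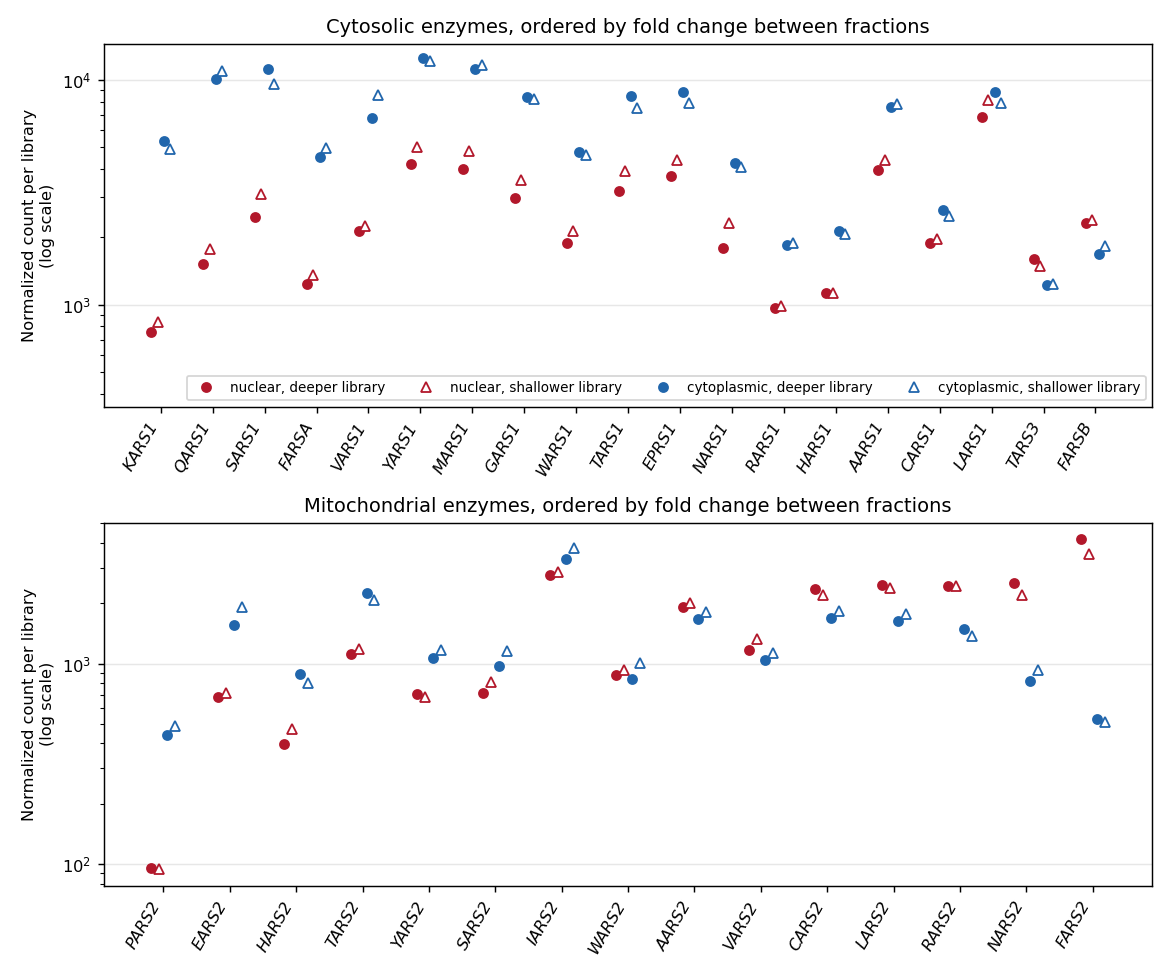
Normalized counts (log scale) are shown for each library and 34 genes with recovered counts, in the order of the fold change, with red for nuclear and blue for cytoplasmic libraries. From KARS1 to CARS1 and from PARS2 to IARS2 both blue points lie above both red points, and at the right end of each panel the order is the reverse.

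The cytosolic genes with the highest log2 fold change were KARS1 and QARS1. KARS1 lies on chr16:75627474-75648643 (hg38, minus strand) and encodes lysyl-tRNA synthetase. Its normalized counts were 755 and 841 in the nuclear libraries and 5341 and 4927 in the cytoplasmic libraries, with the deeper library given first here and in all values that follow. The cytoplasmic values were several times the nuclear ones, and the log2 fold change was 2.69 ± 0.12 (SE, n = 2 libraries per fraction, DESeq2 adjusted p = 5.17e-109), or 6.44-fold. QARS1 lies on chr3:49095932-49105130 and encodes glutaminyl-tRNA synthetase. Its counts were 1511 and 1775 in nuclear and 10059 and 10971 in cytoplasmic RNA, a log2 fold change of 2.68 ± 0.12 (DESeq2 adjusted p = 7.23e-111). The 95% intervals of both genes, 2.45 to 2.92 and 2.45 to 2.91, overlapped almost wholly, so their order is not resolved.

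SARS1 for serine, FARSA for phenylalanine and VARS1 for valine followed. SARS1 had 2459 and 3094 counts in the nuclear and 11155 and 9524 in the cytoplasmic libraries, with a log2 fold change of 1.90 ± 0.13. FARSA, the catalytic alpha subunit of phenylalanyl-tRNA synthetase, had 1234 and 1359 nuclear and 4531 and 4952 cytoplasmic counts, with a log2 fold change of 1.87 ± 0.12. VARS1 had 2116 and 2237 nuclear and 6737 and 8561 cytoplasmic counts, with a log2 fold change of 1.81 ± 0.13. None of these genes had overlapping fractions, and their adjusted p-values by DESeq2 were 5.86e-45, 3.87e-55 and 4.01e-43. The 3 intervals overlapped one another and lay wholly below those of KARS1 and QARS1.

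A middle group of 11 cytosolic genes ran from YARS1 for tyrosine at 1.41 ± 0.11 through MARS1, GARS1, WARS1, TARS1, EPRS1, NARS1, IARS1, RARS1 and HARS1 to AARS1 for alanine at 0.88 ± 0.11. Neighbours in this order differed by less than the standard error of their difference. EPRS1, a fused enzyme that charges both glutamate and proline, had 3735 and 4397 nuclear and 8833 and 7876 cytoplasmic counts and a log2 fold change of 1.04 ± 0.12. With equal totals NARS1, IARS1, RARS1, HARS1 and AARS1 kept their sign and lost the call, at values from 0.36 for NARS1 to 0.22 for AARS1. For IARS1, the isoleucine enzyme, only the means of the fractions could be computed, which were 13086 in nuclear and 25303 in cytoplasmic RNA.

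CARS1, LARS1, TARS3 and FARSB were among the lowest cytosolic genes. CARS1 for cysteine still passed the test, with 1886 and 1960.1 nuclear against 2635 and 2483 cytoplasmic counts and a log2 fold change of 0.41 ± 0.12 (DESeq2 adjusted p = 0.000861), but its sign turned with equal totals, to -0.25. LARS1 for leucine had 6820.5 and 8107 nuclear and 8811.5 and 7884 cytoplasmic counts, so its fractions overlapped, and its value was 0.16 ± 0.12 (DESeq2 adjusted p = 0.246). With equal totals LARS1 was called nuclear at -0.50, and CARS1 lost its call there, with Bonferroni adjustment and with centring on protein-coding genes.

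TARS3 and FARSB were the cytosolic genes with a negative log2 fold change on the deposited scale. TARS3, a second cytosolic threonyl-tRNA synthetase gene, had 1592 and 1492 nuclear and 1217 and 1238 cytoplasmic counts and a value of -0.33 ± 0.13, which did not pass at 0.01 (DESeq2 adjusted p = 0.0173). FARSB had 2307 and 2387 nuclear and 1685 and 1819.5 cytoplasmic counts and was called nuclear, at -0.42 ± 0.12 (DESeq2 adjusted p = 0.000863). TARS3 passed with equal totals, with centring and at an adjusted p of 0.05, and FARSB lost its call with Bonferroni adjustment. FARSB encodes the beta subunit that joins FARSA in 1 enzyme, so the mRNAs of both subunits of that enzyme lay on opposite sides of 0. The FARSB gene spans 89.2 kb on chr2:222566899-222656092, and the FARSA gene spans 11.6 kb on chr19:12922479-12934037.

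Among the mitochondrial enzymes PARS2 for proline had the highest log2 fold change. It lies on chr1:54756898-54764523, and its 96.2 and 94.2 nuclear and 440 and 486 cytoplasmic counts gave a log2 fold change of 2.28 ± 0.22 (DESeq2 adjusted p = 2.84e-25). EARS2 for glutamate had 682 and 711 nuclear and 1555 and 1906 cytoplasmic counts, at 1.31 ± 0.14. PARS2 stood above the other mitochondrial genes, with an interval from 1.86 to 2.70. HARS2 for histidine followed at 0.96 ± 0.16, with 397 and 470.1 nuclear and 884 and 799 cytoplasmic counts. TARS2 for threonine was at 0.92 ± 0.12, with 1113 and 1182 nuclear and 2257 and 2077 cytoplasmic counts. YARS2, SARS2 and IARS2 were also called cytoplasmic, at 0.69, 0.47 and 0.33, but SARS2 and IARS2 lost the call when fold changes were centred on protein-coding genes, and all 3 lost it with Bonferroni adjustment. With equal totals HARS2, TARS2 and YARS2 kept their sign and lost the call, at 0.30, 0.26 and 0.03, SARS2 was uncalled at -0.19, and IARS2 was called nuclear at -0.33.

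For 3 mitochondrial genes no difference passed the test on the deposited scale. WARS2 for tryptophan had 875 and 931 nuclear and 841 and 1001 cytoplasmic counts, with overlapping fractions and a log2 fold change of 0.03 ± 0.15. AARS2 for alanine had 1902 and 1994 nuclear and 1671 and 1802 cytoplasmic counts, at -0.17 ± 0.12. VARS2 for valine had 1164 and 1325 nuclear and 1040.0 and 1128 cytoplasmic counts, at -0.20 ± 0.14. Nuclear libraries were the higher ones for AARS2 and VARS2, but the 95% interval of both genes included 0. The 95% intervals of these 3 genes lay between -0.47 and 0.32. With equal totals all 3 were called nuclear, at -0.64 for WARS2, -0.83 for AARS2 and -0.86 for VARS2.

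The 5 mitochondrial enzymes called nuclear were CARS2, LARS2, RARS2, NARS2 and FARS2. CARS2 for cysteine had 2359 and 2190 nuclear and 1686 and 1834 cytoplasmic counts, at -0.37 ± 0.12 (DESeq2 adjusted p = 0.00473). LARS2 for leucine had 2465 and 2369 nuclear and 1634.5 and 1769 cytoplasmic counts, at -0.51 ± 0.12. RARS2 for arginine had 2439 and 2442 nuclear and 1478.5 and 1369 cytoplasmic counts, at -0.78 ± 0.12. These nuclear libraries were all above the cytoplasmic ones by less than 2-fold, and CARS2 and LARS2 lost the call with Bonferroni adjustment.

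FARS2 and NARS2 lay lower than every other member. FARS2, the mitochondrial phenylalanyl-tRNA synthetase, had 4161 and 3531 counts in the nuclear libraries and 526 and 513 in the cytoplasmic libraries. Its log2 fold change was -2.89 ± 0.13 (DESeq2 adjusted p = 1.06e-100), or 7.40-fold higher in nuclear RNA. NARS2 for asparagine had 2524 and 2202 nuclear and 822 and 928 cytoplasmic counts, at -1.43 ± 0.14 (DESeq2 adjusted p = 2.02e-25). FARS2 is a gene of 568 kb on chr6:5261044-5829192 and NARS2 one of 140 kb on chr11:78435620-78575194, and introns made up 99.1% of the FARS2 span. Reads in introns were counted by the authors, so unspliced RNA is part of these values, and its share was not measured in this table.

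Within an amino acid, the cytosolic and the mitochondrial gene could be set side by side for 16 pairs, with FARSA for phenylalanine and EPRS1 for both glutamate and proline. The cytosolic gene had the higher log2 fold change in 12 pairs, and the median difference was 0.75. The 95% interval of the difference, from both standard errors, lay above 0 in 11 pairs, below 0 in 2 and across 0 in 3. Both genes were measured in the same libraries, so an error shared by them is not in this interval. These differences do not change with the scaling between fractions, which moves both genes alike.

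The largest difference was that of phenylalanine, where FARSA at 1.87 and FARS2 at -2.89 differed by 4.76 (95% interval 4.41 to 5.11), or 27.1-fold. With FARSB in place of FARSA the difference was 2.47. Asparagine followed with a difference of 2.46 between NARS1, with 1793.5 and 2308 nuclear and 4242 and 4092 cytoplasmic counts, and NARS2. Valine differed by 2.01 and arginine by 1.70, and serine, tryptophan, alanine, cysteine, tyrosine, leucine and isoleucine ran from 1.43 down to 0.62.

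The order was turned for proline, where PARS2 exceeded EPRS1, with a difference of -1.24 (95% interval -1.73 to -0.76). For glutamate, histidine and threonine no difference was resolved. Glutamate was at -0.27 (-0.64 to 0.10), histidine at -0.06 (-0.46 to 0.33) and threonine at 0.25 (-0.10 to 0.60).

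**Figure D3:**
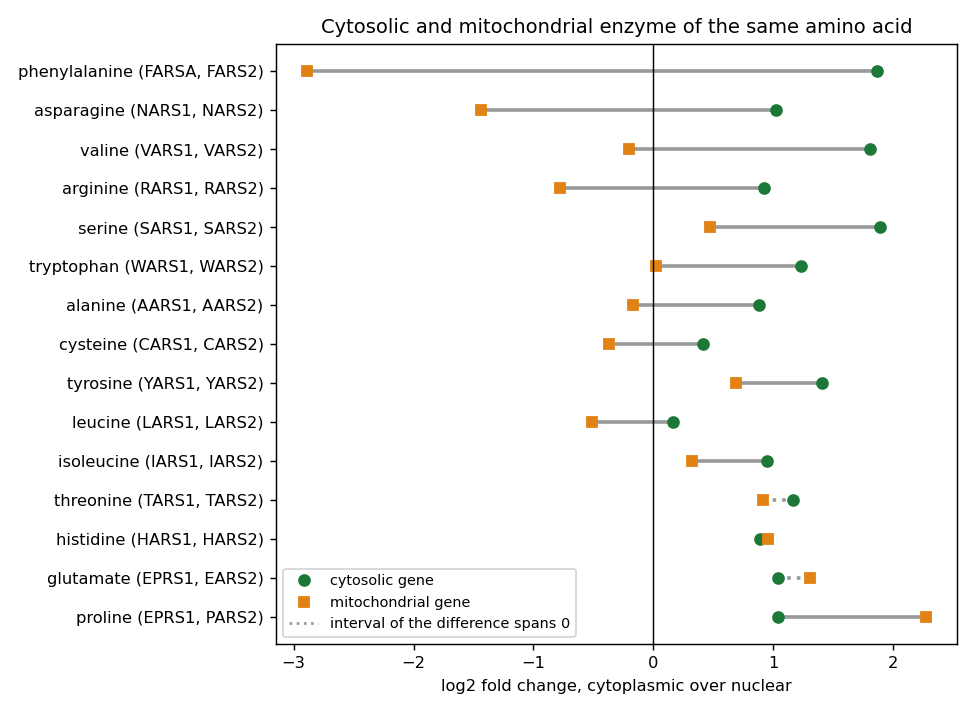
The log2 fold change of cytoplasmic over nuclear RNA (horizontal axis) is shown for the cytosolic gene (circle) and the mitochondrial gene (square) of 15 amino acid pairs, ordered by their difference, with dotted lines where the 95% interval of the difference spans 0. Phenylalanine has the widest separation at 4.76, and proline at the bottom has the square furthest to the right of the circle.

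The length of the gene moved with the fold change. Span here is the distance from the first to the last annotated base of a gene in GENCODE 44 on hg38. Across the 37 genes, span and log2 fold change had a Spearman rho of -0.59, and within the cytosolic and the mitochondrial enzymes it was -0.68 and -0.69. Exonic length alone gave a weaker value, -0.30, with -0.37 within the cytosolic and -0.57 within the mitochondrial enzymes. Without the 4 genes over 100 kb the rho for span was -0.46 over 33 genes. These correlations are descriptions across genes that share the same 4 libraries. The relation was not particular to synthetases. Over 12134 protein-coding genes whose mean normalized count exceeded 50, the rho was -0.71 for span and -0.45 for exonic length.

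The 4 genes over 100 kb were all mitochondrial, namely FARS2, LARS2 (166 kb), NARS2 and WARS2 (109 kb). The median span was 35.6 kb for the mitochondrial and 42.1 kb for the cytosolic enzymes. The mitochondrial gene was the longer one in 6 of the 16 pairs. In 10 of the 16 pairs the longer gene had the lower fold change. AARS2 and VARS2 were short genes, of 14.6 and 12.3 kb, without a cytoplasmic call. Their cytosolic counterparts AARS1 and VARS1 were longer, at 37.7 and 18.2 kb, and were called cytoplasmic. These pairs were among those in which the longer gene had the higher fold change. Whether span accounts for the difference between cytosolic and mitochondrial enzymes was not tested.

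Each gene was also set against the median of protein-coding genes in its own decile of span. Of the 21 cytosolic genes 19 lay above that median, and the median distance over all 21 was 0.73. The mitochondrial genes were split evenly, with 8 of 16 above and a median distance of 0.01. KARS1 was 1.99 above the median of its decile. FARS2 lay in the longest decile, whose median was -2.03, and was 0.86 below it.

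**Figure D4:**
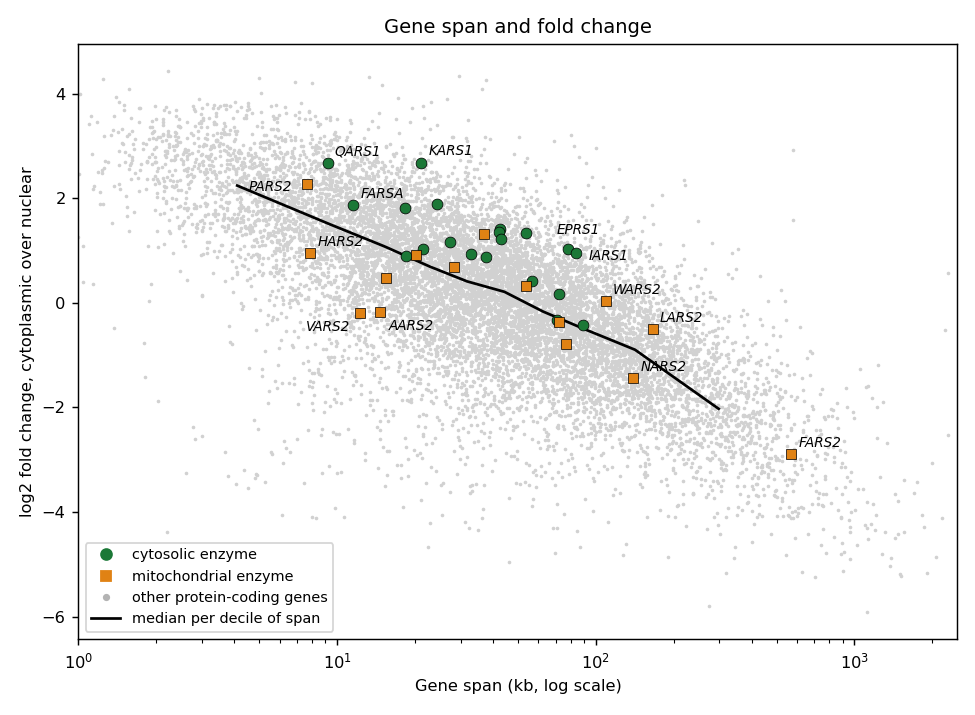
The log2 fold change of cytoplasmic over nuclear RNA is plotted against gene span (kb, log scale) for 35 synthetase genes and for other protein-coding genes with a mean over 50 (grey, those under 1 kb lie off the axis), and the line joins the medians of the deciles of span. Most green circles, the cytosolic enzymes, lie above the line, while the orange squares, the mitochondrial enzymes, fall on both sides of it.

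Synthetases fall into classes I and II, which differ in the fold of the catalytic domain. For the 17 class I genes the median log2 fold change was 0.69, with 11 cytoplasmic, 3 nuclear and 3 uncalled genes. The 19 class II genes had a median of 0.92, with 13, 3 and 3, and EPRS1, which joins an enzyme of each class, was left out. Both the highest value, KARS1, and the lowest, FARS2, were in class II, but QARS1, whose order with KARS1 was not resolved, was in class I. By median fold change the order of the classes was not the same in both compartments. In the cytosolic enzymes class I had the higher median, 1.23 against 1.02. In the mitochondrial enzymes it had the lower one, -0.09 against 0.69. The mitochondrial classes differed in span, with a median of 63.1 kb in class I and 17.8 kb in class II. Set against the median of each gene's own decile of span, class I was higher in both compartments. The median distances were 1.02 against 0.57 in the cytosolic and 0.33 against -0.54 in the mitochondrial enzymes.

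Some of the cytosolic enzymes are held together in the multisynthetase complex, a large assembly on the scaffold proteins AIMP1, AIMP2 and EEF1E1. Of its 8 synthetase genes 6 were cytoplasmic and 2 did not pass, LARS1 among them, with a median of 1.00. The 13 cytosolic enzymes outside the complex had a median of 1.17, with 11 cytoplasmic, 1 nuclear and 1 uncalled. Genes of the complex were longer, with a median span of 57.1 kb against 37.7 kb outside it. Set against the median of each gene's own decile of span, the order was turned. The median distance was 1.16 in the complex and 0.67 outside it. Within the complex, LARS1 at 0.16 and KARS1 at 2.69 were far apart. The scaffold mRNAs were spread as well. AIMP2 had 446 and 493 nuclear and 1359 and 1421 cytoplasmic counts and was cytoplasmic at 1.57 ± 0.14. AIMP1 at 0.24 ± 0.15 and EEF1E1 at 0.13 ± 0.15 did not pass.

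The proteins that work with charged tRNA were taken as a wider list of 15 genes, all of them tested. Of these 10 were cytoplasmic, 0 were nuclear (also 0 at an unadjusted DESeq2 p under 0.05) and 5 did not pass. Over the tested protein-coding genes 35.6% were cytoplasmic and 28.4% nuclear. The median log2 fold change of the list was 0.55. With equal totals 5 were cytoplasmic and 4 nuclear, beside 22.4% and 42.6% of the protein-coding genes. EEF1A1, among the cytoplasmic ones, also served above to mark the fractions. The genes of the mitochondrial glutamyl-tRNA amidotransferase, which acts on the product of EARS2, were all cytoplasmic, at 0.53 for GATB, 0.77 for QRSL1 and 1.46 for GATC, and of these GATC alone kept the call with equal totals, where GATB was at -0.13 and QRSL1 at 0.11. Both elongation factors that carry charged tRNA to the ribosome were higher in cytoplasmic RNA, the mitochondrial factor TUFM at 2.35 ± 0.13 and EEF1A1 of the cytosol. The tRNA exporter XPOT, with 5410 and 6654 nuclear and 11914 and 11939 cytoplasmic counts, was at 0.98 ± 0.12 and lost the call with equal totals, at 0.32.

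MTFMT, which formylates the mitochondrial initiator tRNA, was cytoplasmic at 0.53 ± 0.16. Among the genes that clear wrong or D-amino acids from tRNA, DTD2 at 1.93 ± 0.17 and AARSD1 at 0.55 ± 0.14 were cytoplasmic and DTD1 did not pass, at -0.20 ± 0.13. With equal totals MTFMT at -0.14 and AARSD1 at -0.11 turned sign and were not called. The genes that place selenocysteine on its tRNA did not pass either, with PSTK at 0.33 ± 0.22 and SEPSECS at -0.09 ± 0.18. DTD1 is the longest gene of this list, at 179 kb, and TUFM is 3.94 kb long.

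Of the 37 synthetase genes 16 started within 1000 bases of a tested gene that runs the other way. HARS1 and HARS2, the cytosolic and mitochondrial enzymes of histidine, are such neighbours on chromosome 5, where their annotated 5′ ends overlap by 108 bases. HARS1 had 1125 and 1128 nuclear and 2132 and 2054 cytoplasmic counts, and its log2 fold change of 0.89 ± 0.12 was close to the 0.96 of HARS2. RARS2 and its neighbour ORC3, a subunit of the origin recognition complex, were also alike, at -0.78 and -0.62, and they have like spans of 76.6 and 77.4 kb.

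Other neighbours had unlike values. SARS2 was at 0.47 and MRPS12, a mitochondrial ribosomal protein gene of 2.23 kb, at 3.23. WARS1 was at 1.23 and WDR25, of 154 kb, at -1.42. FARS2 and LYRM4 were both nuclear, at -2.89 and -1.28, and WARS2 at 0.03 stood above the noncoding WARS2-AS1 at -2.04. In all, 22 members overlapped an annotated gene on the opposite strand. The authors had removed stretches shared by several genes from their annotation, so such stretches did not count for either gene.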

How the data were processed

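Per the labels and the study's methods, reads of 2 nuclear and 2 cytoplasmic libraries were aligned by the authors to hg38 with STAR and counted over exons and introns with featureCounts 2.0.2 (overlap of at least 20 bases), on an annotation derived from GENCODE 34 from which stretches shared by genes and readthrough transcripts were removed. Whether counting used strand is not given in the sources used here. DESeq2 was run by the authors. The deposited table holds, per gene, a signal (the mean normalized count over all 4 libraries), a log2 fold change of cytoplasmic over nuclear with its standard error, a Wald score, a p-value and a Benjamini-Hochberg adjusted p-value. These deposited columns of the authors' own comparison gave the fold changes and calls, since the table has no counts per library. A gene was called at an adjusted p of at most 0.01, the study's threshold.

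Counts of single libraries were recovered from the table. The mean is a sum of 4 whole counts, each multiplied by 1 step per library, and the steps give the size factors. A set of 4 whole counts was accepted where it gave the deposited mean to its 10th digit, where a negative binomial fit to it gave the deposited log2 fold change within 5e-07, and where the next set was at least 20 times further off. This succeeded for 13624 of 13673 genes (99.6%) with a mean of 50 to 9000, members included. The method was tested on simulated data: of 600 genes 596 were accepted, and all 596 were right. No count model was run on recovered counts. Fraction means follow from the mean and the fold change, and SE values are the deposited ones.

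The members, the gene lists and the comparisons were chosen with earlier results of these data known. Full statistics were given for the 5 highest and 5 lowest log2 fold changes of the cytosolic and of the mitochondrial enzymes, and all list genes could be named. Of the members, 2 are counted in the totals, medians and correlations and are not reported singly here or plotted. Overlap of libraries, divergent neighbours and replicate differences were added after the data were seen. Coordinates are from GENCODE 44 on hg38, with 99.1% of tested genes matched. Alternatives were an adjusted p of 0.05, a Bonferroni adjustment, equal fraction totals, centring on protein-coding genes, other lengths and members, and leaving out each library. Standard errors are those of the authors' DESeq2 fit to 2 libraries per fraction, and need not follow a gene's own spread between them. The nuclear libraries differed by a log2 of 0.004 for HARS1 and 0.36 for NARS1, with standard errors of 0.12 and 0.13. Variation beyond these 4 libraries is not in them. Python 3.11.15, pandas 2.3.3, scipy 1.17.1 and matplotlib 3.10.9 were used.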

Additional observations from a re-analysis of the deposited data

How the results depend on the processing

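With both fractions scaled to equal totals, the calls were 14 cytoplasmic and 13 nuclear in place of 25 and 6, the cytosolic median was 0.38 in place of 1.04 and the mitochondrial median turned from 0.18 to -0.48. Under the same scaling 6 genes changed sign, among them CARS1 to -0.25, IARS2 to -0.33, LARS1 to -0.50, SARS2 to -0.19 and WARS2 to -0.64, while 20 of 37 genes kept both direction and call. A mean of the mitochondrial enzymes weighted by precision was -0.0099. Bonferroni adjustment left 3 nuclear and 21 cytoplasmic calls, an adjusted p of 0.05 gave 7 and 25, and centring on protein-coding genes gave 7 and 22. Exonic length in place of span gave a rho of -0.30 across all 37 genes. Leaving out 1 library at a time, the cytosolic median ranged from 0.98 to 1.27 and the mitochondrial median from 0.07 to 0.28. The median pair difference ranged from 0.68 to 0.89. These values came from recovered library counts and so without IARS1. On that basis the cytosolic median with all libraries was 1.10. The mitochondrial median moved by over 1.5 times without the deeper cytoplasmic library, to 0.28, and without the shallower one, to 0.07. The cause of these shifts was not tested. No paired analysis was possible because the table does not tie libraries to replicate numbers, and fits across all genes without 1 library were not run.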

Other observations

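The recovered counts also show how the libraries of 1 fraction differed, in a comparison made after the data were seen. In the nuclear fraction the shallower library exceeded the deeper one for 18 of the 20 cytosolic synthetase genes with counts, with a median log2 difference of 0.17. NARS1 was the furthest apart, at 0.36, and SARS1 followed at 0.33. The mitochondrial enzymes had a median of 0.05 and were higher in the shallower library for 10 of 16 genes. Over 7965 protein-coding genes with a mean over 500 the median was -0.0029, 49.2% lay above 0, and the 10th and 90th percentiles were -0.21 and 0.20. In the cytoplasmic fraction the medians were -0.03 for the cytosolic and 0.12 for the mitochondrial enzymes, beside 0.06 over all of these genes.

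Genes of the amino acid and endoplasmic reticulum stress responses were then looked at, in a list of 32 that also held some sterol and growth genes. Of the 25 with recovered counts 23 were higher in the shallower nuclear library, with a median log2 difference of 0.32, and in the cytoplasmic fraction 11 were higher in the shallower library and 14 lower, with a median of -0.06. CHAC1, a glutathione-degrading enzyme, had 202 and 341 counts in the deeper and shallower nuclear libraries and 1343 and 1073 in the cytoplasmic ones. ASNS, asparagine synthetase, had 2855 and 3676 nuclear and 11144 and 10048 cytoplasmic counts. The sterol gene INSIG1 was 1 of the 2 exceptions, at -0.11 in the nuclear fraction. With 2 libraries per fraction these differences carry no test.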
